A study of Mus musculus with 6 samples.

Results

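A cassette exon is an internal exon that a transcript can either carry or leave out between the same neighbouring exons. When its length is divisible by 3, leaving it out removes a whole number of codons and keeps the reading frame of the exons after it. Exons of other lengths shift the frame when they are skipped, which usually brings an early stop codon and exposes the transcript to nonsense-mediated decay. Frame-keeping cassettes are therefore known as a common way for a gene to make proteins that differ by a short stretch, and in liver the best known is the 36 nt exon of the insulin receptor.

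The exons described here are the simple frame-keeping cassettes of mouse hepatocytes. They were measured in hepatocytes from livers of male C57BL/6J mice fed a high-fat diet (HFD, 60% fat, 3 libraries) or a low-fat diet (LFD, 10% of kcal from fat, 3 libraries). The animals of both groups ate normal chow (13.5% fat) up to the age of 8 weeks, and the diets lasted 12 weeks. Stranded mRNA libraries were sequenced as paired ends, and splicing was given as local splicing variations (LSVs), each a reference exon with all junctions that leave or enter it. PSI, the fraction of an LSV's reads that use a junction, was deposited as 1 value per diet over the pooled libraries, with a posterior variance. Errors below are posterior SDs, which cover the reads of the pooled libraries and not the spread between animals, so no difference below was tested between mice and no p-value is given from these values.

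An LSV was taken as a simple cassette when it was present for both diets, carried exon skipping as its only event type, had no retained intron, and joined 3 exons by 2 junctions. The middle exon then had to have a length divisible by 3. These rules left 3586 LSVs of 26910 present for both diets. They described 2607 different exons in 1946 genes, out of 7558 simple cassette exons, of which the other 4951 break the frame. There were 963 frame-keeping exons seen by 2 LSVs, from the upstream and from the downstream neighbour, and 1644 seen from 1 side. Skipping PSI, used throughout, is the PSI of the longer junction, so that 0 means always included and 1 always skipped, and for exons with 2 LSVs it is the mean of both. For exons with 2 LSVs the posterior SD is the root of the mean of both variances, which leaves out disagreement between the sides. Values are posterior means limited to between 0.0125 and 0.9875 by the method's bins. The whole set is not one of coding internal exons. In GENCODE M21, the mouse annotation on the same build (mm10), 2241 of 2607 exons were listed with the same start and end. Of the 2607, 1494 lay inside a coding sequence, 280 were an annotated first exon and 218 a last exon. The other 366 had no listed exon with the same start and end. They are called unannotated below in this sense only. They may overlap a listed exon with other bounds, and none of the junctions was marked as new in the deposited values. The 1475 that were both coding and internal are called coding internal exons below. In 177 exons, none of them coding and internal, a junction used to include the exon lies inside its stated bounds, so the part included can be shorter than the exon. There were 112 exons in multi-copy gene families, where reads can be shared between copies.

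The labelled cell type could not be checked, since PSI does not measure how much of a transcript is present. Carrying an LSV takes enough reads and a choice of junctions, so only counts of marker genes with an LSV are given. All 10 hepatocyte marker genes carried one. Of macrophage markers 2 of 10 did, of endothelial markers 3 of 10, of stellate cell markers 1 of 8 and of bile duct markers 1 of 6. Of the hepatocyte markers only 2, Cps1 and Hnf4a, held frame-keeping cassettes, with 3 exons. In the other lists such cassettes were seen in Vsig4 (macrophage), Nrp1 (endothelial), Dcn (stellate) and Spp1 (bile duct), 5 exons in all, and none of these 5 differed by 0.1 between diets. The part of RNA from other cells in the results below was not tested.

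Exons that were skipped less often on HFD and those skipped more often are shown first, followed by exons whose difference passed neither threshold used below. They are read 5′ to 3′ on the transcribed strand from GENCODE M21 transcripts, with coordinates on mm10. Capitals mark codons that lie whole inside the exon, and lower case marks bases of a codon that is split over a splice site. Skipped less often on HFD were these 5, shown because they are the 1 coding exon past the larger of the thresholds used below and the 4 coding exons seen from both sides that passed the smaller one.
Mta1 51 nt, chr12:113120211-113120261, plus strand: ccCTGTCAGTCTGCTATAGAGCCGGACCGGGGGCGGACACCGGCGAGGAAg
Med25 72 nt, chr7:44880567-44880638, minus strand: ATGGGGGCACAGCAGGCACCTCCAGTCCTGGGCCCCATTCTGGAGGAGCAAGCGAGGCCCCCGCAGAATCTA
Herc6 138 nt, chr6:57652032-57652169, plus strand: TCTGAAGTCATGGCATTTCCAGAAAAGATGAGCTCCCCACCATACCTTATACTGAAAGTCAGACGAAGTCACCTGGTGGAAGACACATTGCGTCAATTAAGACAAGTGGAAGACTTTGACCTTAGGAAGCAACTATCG
Hsf1 66 nt, chr15:76500131-76500196, plus strand: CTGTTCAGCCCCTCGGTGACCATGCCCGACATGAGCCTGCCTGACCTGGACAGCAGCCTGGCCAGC
Picalm 24 nt, chr7:90194273-90194296, plus strand: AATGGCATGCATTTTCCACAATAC

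Skipped more often on HFD were these 5, shown as coding exons that passed the smaller threshold, 4 of them seen from both sides.
Arhgef11 120 nt, chr3:87695398-87695517, plus strand: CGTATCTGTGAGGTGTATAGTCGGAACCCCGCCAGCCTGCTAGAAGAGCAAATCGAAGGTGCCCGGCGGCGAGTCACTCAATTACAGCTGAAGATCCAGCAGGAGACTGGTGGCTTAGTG
Lphn2 39 nt, chr3:148849766-148849804, minus strand: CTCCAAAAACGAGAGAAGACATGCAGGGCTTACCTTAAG
Ktn1 87 nt, chr14:47716874-47716960, plus strand: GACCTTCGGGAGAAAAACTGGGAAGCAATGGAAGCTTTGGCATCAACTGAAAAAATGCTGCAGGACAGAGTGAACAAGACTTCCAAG
Ythdf3 33 nt, chr3:16203187-16203219, plus strand: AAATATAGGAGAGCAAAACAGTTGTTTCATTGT
Lsm14a 177 nt, chr7:34357766-34357942, minus strand: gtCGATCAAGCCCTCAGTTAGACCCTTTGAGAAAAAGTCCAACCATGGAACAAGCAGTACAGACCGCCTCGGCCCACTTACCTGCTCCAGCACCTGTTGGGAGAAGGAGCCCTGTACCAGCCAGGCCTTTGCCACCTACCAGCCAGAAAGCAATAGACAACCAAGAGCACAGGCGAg

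Passing neither threshold were these 7, shown as examples of coding exons that were used in part. Max was picked after its values were seen, and the others are named by rule from the gene lists.
Acly 30 nt, chr11:100503160-100503189, minus strand: atTCAGTCCCAAGTCCAAGATCCCTGCAAg
Cbs 42 nt, chr17:31614529-31614570, minus strand: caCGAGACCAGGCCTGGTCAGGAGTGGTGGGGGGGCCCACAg
Opa1 54 nt, chr16:29588823-29588876, plus strand: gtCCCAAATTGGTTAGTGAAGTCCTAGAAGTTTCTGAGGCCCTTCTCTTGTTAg
Opa1 111 nt, chr16:29597586-29597696, plus strand: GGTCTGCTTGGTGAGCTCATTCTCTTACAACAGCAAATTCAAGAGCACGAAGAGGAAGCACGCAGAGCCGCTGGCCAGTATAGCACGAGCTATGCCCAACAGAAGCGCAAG
Max 27 nt, chr12:76961263-76961289, minus strand: GAAGAGCAACCGAGGTTTCAATCTGCG
Luc7l2 30 nt, chr6:38598785-38598814, plus strand: gTCCCGATCACATAGCAAGAATCCCAAAag
Eif4h 60 nt, chr5:134624441-134624500, minus strand: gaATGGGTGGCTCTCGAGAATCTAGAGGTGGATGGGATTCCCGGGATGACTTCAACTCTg

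The exons of Med25, Herc6, Hsf1, Picalm, Ktn1, Lphn2, Arhgef11, Ythdf3, Max and the 111 nt exon of Opa1 start and end between codons. Skipping any of these takes out the printed codons and leaves the neighbouring ones as they were. The exons of Mta1, Lsm14a, Acly, Cbs, Luc7l2, Eif4h and the 54 nt exon of Opa1 split a codon at each end, so skipping also joins a codon from the bases that remain on either side.

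Most frame-keeping exons were used nearly always or nearly never, alike on both diets. Skipping PSI was under 0.1 on both diets for 1517 exons (58.2%, exact 95% binomial interval 56.3% to 60.1%), over 0.9 on both for 717 (27.5%, 25.8% to 29.3%), and between 0.1 and 0.9 on both for 264 (10.1%, 8.99% to 11.3%). These are called included, skipped and intermediate exons, and the 109 exons that lay in different classes on the 2 diets are borderline. Intervals here cover counting of exons only. At the limits of the scale on both diets were 1053 exons with skipping PSI under 0.02 and 473 with skipping PSI over 0.98. The median skipping PSI over all 2607 exons was 0.0273 on HFD and 0.0325 on LFD.

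Compared with frame-breaking exons, the direction for skipped exons depended on which exons were counted. Over all simple cassettes, 717 of 2607 frame-keeping exons (27.5%) and 2007 of 4951 frame-breaking exons (40.5%, 39.2% to 41.9%) were skipped, while 10.1% and 5.03% were intermediate. Exons without a listed exon of the same start and end numbered 366 of the frame-keeping and 1577 of the frame-breaking ones. Among coding internal exons alone, frame-keeping exons had the larger share of both classes. This group is itself selected, since an exon that brings a stop codon when included can fall outside it. Left out were 235 frame-keeping and 485 frame-breaking exons that are coding in part. Also left out were 407 and 857 exons of noncoding transcripts. How far this choice shaped the comparison was not tested. Of 1475 frame-keeping coding internal exons, 160 were intermediate (10.8%, 9.31% to 12.5%), against 71 of 1810 frame-breaking ones (3.92%, 3.08% to 4.92%). Skipped were 152 frame-keeping exons (10.3%, 8.8% to 12.0%) and 48 frame-breaking exons (2.65%, 2.0% to 3.5%). Read the other way, frame-keeping exons made up 1109 of 2742 included coding internal exons (40.4%, 38.6% to 42.3%), 160 of 231 intermediate ones (69.3%, 62.9% to 75.1%) and 152 of 200 skipped ones (76.0%, 69.5% to 81.7%). The intervals of the included class did not overlap those of the other classes. Exons of 1 gene share a transcript and are not independent, and no test was made. In 5′ UTR exons the intervals overlapped: 14 of 87 frame-keeping exons (16.1%, 9.09% to 25.5%) and 25 of 163 frame-breaking exons (15.3%, 10.2% to 21.8%) were intermediate.

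Above 15 nt, intermediate shares of frame-keeping exons were smaller at greater length. Among frame-keeping coding internal exons, the intermediate share was 25.6% of 43 exons of 16 to 27 nt (13.5% to 41.2%), 20.3% of 128 exons of 28 to 51 nt (13.7% to 28.3%), 12.6% of 515 exons of 52 to 99 nt (9.88% to 15.8%) and 7.84% of 485 exons of 100 to 150 nt (5.60% to 10.6%). Of the 22 exons up to 15 nt, 3 were intermediate (13.6%, 2.91% to 34.9%) and 16 were skipped on both diets. Frame-breaking exons did not show this order over the whole range. Intermediate were 0 of 14 at 16 to 27 nt (0% to 23.2%) and 2 of 90 at 28 to 51 nt (2.22%, 0.270% to 7.80%). From there their shares also fell with length, with 4.41% of 612 at 52 to 99 nt (2.93% to 6.35%) and 4.02% of 646 at 100 to 150 nt. At 151 to 200 nt the share was 3.31% of 332, and at 201 to 300 nt 2.35% of 85. Over 300 nt it was 3 of 30 (10.0%, 2.11% to 26.5%). The intervals of these frame-breaking bins all overlapped, and the shortest bins held few exons. The median length of frame-keeping coding internal exons was 57 nt in skipped, 84 nt in intermediate and 111 nt in included exons. Base composition was close between these classes, with a median GC content of 50.0% in skipped, 48.5% in intermediate and 48.5% in included exons. The exon began between codons in 58 of 121 skipped exons (47.9%, 38.8% to 57.2%), 78 of 154 intermediate exons (50.6%, 42.5% to 58.8%) and 665 of 1106 included exons (60.1%, 57.2% to 63.0%) whose frame was known. Coding exons were chosen as lying inside an annotated coding sequence, so in-frame stop codons were nearly absent by that choice. One was found in 1 of 1434 frame-keeping coding internal exons with a known frame, and in 1 of 1792 frame-breaking ones. In the frame-keeping exon it was the TGA at codon 13 of the 144 nt exon of Dio1. This is the type 1 iodothyronine deiodinase, whose active site is a selenocysteine read from TGA. That exon was included, at 0.0125 on HFD and 0.0126 on LFD.

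**Figure D1:**
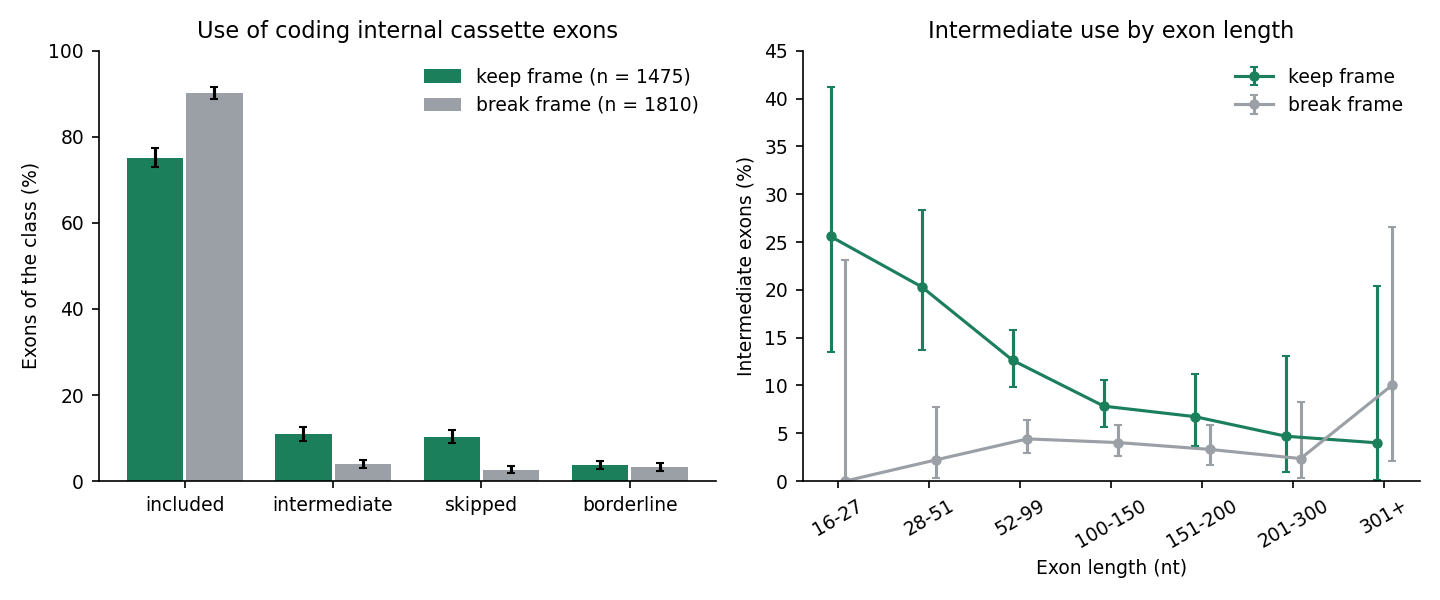
Left, percent of coding internal simple cassette exons in each class of use, for exons that keep frame (1475) and break frame (1810). Right, percent of exons that were intermediate against exon length in nt, with exons up to 15 nt left out. Bars and points are shares and error bars exact 95% binomial intervals. Frame-keeping exons were intermediate in 10.8% of cases and frame-breaking ones in 3.92%, and the frame-keeping share was 25.6% at 16 to 27 nt.

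Some well-known exons are given as a description, chosen after their values were seen, and they support nothing about the cells. The 36 nt exon of Insr, the insulin receptor, was included, with a skipping PSI of 0.0274 ± 0.0168 on HFD and 0.0126 ± 0.00152 on LFD. The receptor that carries this exon is known as the B form, the usual one in liver. The 273 nt exon of Fn1, fibronectin, known as an extra domain left out of plasma fibronectin, was skipped at 0.988 on both diets. The 30 nt exon of Dnm2, a GTPase that cuts vesicles from membranes, was skipped at 0.987 on HFD and 0.987 on LFD. The 168 nt exon of Aplp2, a relative of the amyloid precursor protein, was intermediate at 0.175 ± 0.0204 on HFD and 0.205 ± 0.0202 on LFD. App itself had a 54 nt exon at 0.680 ± 0.0447 on HFD and 0.603 ± 0.0373 on LFD, and a 57 nt exon at 0.521 ± 0.0483 on HFD and 0.461 ± 0.0438 on LFD.

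The 5 shortest exons with a mean skipping PSI of at least 0.1 had 3 to 12 nt. Single-codon exons of Spp1, the secreted phosphoprotein osteopontin, and Mon2, a protein of endosome to Golgi traffic, were skipped at 0.988 and 0.987 on HFD, against 0.987 and 0.986 on LFD. Each was near the upper limit from both sides. The 6 nt exon of Clip1, which binds growing microtubule ends, was skipped at 0.984 ± 0.00977 on HFD and 0.965 ± 0.0177 on LFD. The 12 nt exon of Atp2c1, the Golgi calcium and manganese pump, was skipped at 0.972 ± 0.0157 on HFD and 0.95 ± 0.0185 on LFD. Only the 12 nt exon of Mtss1, which bends membranes and binds actin, was intermediate among these 5, at 0.580 ± 0.0372 on HFD and 0.624 ± 0.0299 on LFD.

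Few frame-keeping exons differed between the diets. A difference was called when the diets lay 0.2 or more apart in skipping PSI and 0 lay outside the 95% normal interval of the difference, taken from the posterior variances of both diets and called the bound below. This held for 4 of 2607 exons (0.153%), 1 skipped more often and 3 less often on HFD, against a background of 0.198% over all 7558 simple cassette exons, 0.0926% of them higher and 0.106% lower. Over all LSVs present for both diets, any junction was called by the same rule in 0.624%. An LSV with more junctions has more chances to pass, so this share is not matched to that of exons judged by 1 junction. Counted over LSVs and not over the mean of both sides, 7 of 3586 passed, 4 of them higher on HFD, from Arhgef11, Pde4dip, Lphn2 and Zmym2. Taking the mean was settled after that count had been seen. The median difference was 0 over the frame-keeping exons, and also over the frame-breaking ones.

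Of the 4 called exons, 1 was coding and internal. The 51 nt exon of Mta1, a subunit of the nucleosome remodelling and deacetylase complex, was skipped at 0.342 ± 0.0497 on HFD and 0.576 ± 0.0459 on LFD, a difference of -0.23. It was seen from its upstream neighbour only. The 66 nt exon of Fam35a, known from human cells as a factor in DNA break repair, lies in the 5′ UTR and was skipped at 0.470 ± 0.0492 on HFD and 0.698 ± 0.0397 on LFD, a difference of -0.23. The 1536 nt exon of Pde4dip, myomegalin of the Golgi and centrosome, is annotated as a first exon, so skipping and a start at another exon cannot be told apart. It had 0.811 ± 0.0386 on HFD and 0.548 ± 0.0436 on LFD, a difference of 0.26. The 102 nt exon of Mup-ps18, a pseudogene of the major urinary proteins, had 0.407 ± 0.0608 on HFD and 0.921 ± 0.0548 on LFD, a difference of -0.51. Its skipping junction spans 210036 bases of a multi-copy cluster, so its reads cannot be placed with certainty.

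The 297 nt segment of Ftcd, an enzyme of histidine breakdown, lay just under the threshold at 0.788 ± 0.0227 on HFD and 0.9875 on LFD, a difference of -0.20. It fills the whole space between adjacent exons, so that its skipping junction is the splice of a retained intron, and it was the 1 member of this kind.

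**Figure D2:**
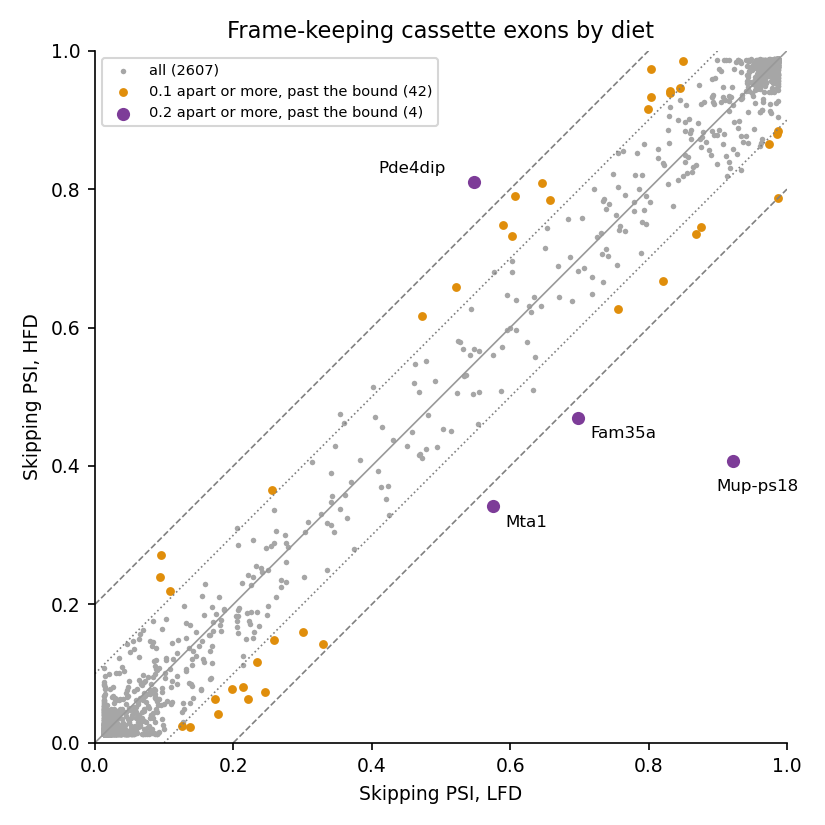
Skipping PSI of each of the 2607 frame-keeping cassette exons on HFD (y axis) against LFD (x axis), from 0 to 1, with lines at no difference, at 0.1 (dotted) and at 0.2 (dashed). Grey points are all exons, orange the 42 exons at least 0.1 apart and past the posterior bound, and purple the 4 named exons at least 0.2 apart. Points gather at the 2 ends of the diagonal, where exons were included or skipped on both diets.

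A smaller threshold of 0.1, with the same bound, was passed by 42 frame-keeping exons (1.61%), 19 higher and 23 lower on HFD. The background over all simple cassette exons was 1.47%, with 0.781% higher and 0.688% lower, so the share of frame-keeping exons lay near that of all cassettes. That background includes the frame-keeping exons themselves, and the share of intermediate exons differs between the sets. Among intermediate exons, 20 of 264 frame-keeping ones (7.58%) and 24 of 249 frame-breaking ones (9.64%) passed this threshold. Coding internal exons made up 21 of the 42, and 13 of the 42 were seen from both sides. Of the coding internal exons, 12 were skipped less and 9 more often on HFD. Among the 264 intermediate exons, 125 had a higher and 139 a lower value on HFD, and the median size of the difference was 0.0327. Their median posterior SD was 0.0352 on HFD and 0.0306 on LFD. The difference was no larger than its own posterior SD in 164 of the 264 and past the bound in 24. Among 249 intermediate frame-breaking exons, these counts were 133 and 31. The posterior variances correspond to a median of 132 effective reads on HFD and 186 on LFD for an intermediate frame-keeping exon, so values were less precise on HFD.

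Among exons skipped less often on HFD at this threshold, 4 coding internal ones were seen from both sides. The 72 nt exon of Med25, a Mediator subunit that meets activators, had 0.0728 ± 0.0295 on HFD and 0.245 ± 0.0406 on LFD. The difference was -0.15 from the upstream side and -0.19 from the downstream side. The 66 nt exon of Hsf1, the master regulator of the heat shock response, had 0.117 ± 0.0374 on HFD and 0.234 ± 0.0424 on LFD, with differences of -0.11 and -0.12 from its sides. It is flanked by introns of 77 and 70 nt. The 138 nt exon of Herc6, a ubiquitin ligase that in mouse attaches ISG15, had 0.0420 ± 0.0241 on HFD and 0.178 ± 0.0421 on LFD, with differences of -0.16 and -0.12. The 24 nt exon of Picalm, a clathrin assembly protein, had 0.148 ± 0.0273 on HFD and 0.259 ± 0.0312 on LFD, with differences of -0.11 from either side.

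Seen from 1 side only, the 237 nt exon of Prrc2c, a stress granule protein, had 0.668 ± 0.0595 on HFD and 0.821 ± 0.0386 on LFD. The 84 nt exon of Ddhd1, a phospholipase of phosphatidic acid, had 0.160 ± 0.0445 on HFD and 0.301 ± 0.0473 on LFD. The 201 nt exon of Ranbp3, a nuclear export cofactor, had 0.745 ± 0.0435 on HFD and 0.876 ± 0.0319 on LFD. The 102 nt exon of Kif13b, a kinesin, had 0.0811 ± 0.0347 on HFD and 0.214 ± 0.0488 on LFD. Both cohesin subunits of the STAG family had a 111 nt exon that was skipped less often on HFD, a pair picked out after the values were seen. Stag1 had 0.0640 ± 0.0283 on HFD and 0.173 ± 0.0443 on LFD, and Stag2 had 0.735 ± 0.0374 on HFD and 0.868 ± 0.0228 on LFD. Aligned without gaps, the 2 exons have 51 identical bases of 111 (45.9%). Outside coding sequence, the 123 nt 5′ UTR exon of Snrk, a kinase related to AMPK, had 0.143 ± 0.0363 on HFD and 0.329 ± 0.0368 on LFD. The 48 nt exon of Ppm1b, a protein phosphatase, is coding in part and had 0.627 ± 0.0469 on HFD and 0.756 ± 0.0401 on LFD. Also lower were unannotated exons of Bcr (45 nt, 0.883 ± 0.0378 on HFD and 0.987 ± 0.00486 on LFD), the kinase and GTPase regulator, and of Bckdhb (99 nt, 0.879 ± 0.0335 on HFD and 0.986 ± 0.00693 on LFD), a subunit of the branched-chain keto acid dehydrogenase. The others, of Arfrp1, Cish, Crem and Stam, differed by -0.10 to -0.12 and are not coding internal exons.

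Among exons skipped more often on HFD, 6 coding internal ones were seen from both sides. The 120 nt exon of Arhgef11, an activator of RhoA, had 0.790 ± 0.0551 on HFD and 0.606 ± 0.0545 on LFD. Its difference was 0.08 seen from upstream and 0.29 seen from downstream, so the sides gave unlike sizes. The 39 nt exon of Lphn2, an adhesion receptor, had 0.808 ± 0.0416 on HFD and 0.646 ± 0.0376 on LFD, with 0.22 from upstream and 0.11 from downstream. The 87 nt exon of Ktn1, kinectin, which anchors kinesin to the endoplasmic reticulum, had 0.748 ± 0.0508 on HFD and 0.590 ± 0.0517 on LFD, with 0.17 and 0.15. A second cassette of Ktn1, of 72 nt, had 0.731 ± 0.0461 on HFD and 0.726 ± 0.0384 on LFD. The 177 nt exon of Lsm14a, a P-body protein, had 0.366 ± 0.0417 on HFD and 0.256 ± 0.0328 on LFD, with 0.12 and 0.10. The 93 nt exon of Gripap1, an endosomal protein, had 0.947 ± 0.0260 on HFD and 0.846 ± 0.0364 on LFD, with 0.10 from either side. The 33 nt exon of Atp9b, a P-type ATPase of the Golgi, had 0.939 ± 0.0295 on HFD and 0.832 ± 0.0352 on LFD, with 0.13 and 0.09. The 60 nt exon of Akap8l, a nuclear anchoring protein, is coding in part and had 0.659 ± 0.0403 on HFD and 0.522 ± 0.0404 on LFD, with 0.16 and 0.11.

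Seen from 1 side, the 81 nt exon of Golga2, the Golgi matrix protein GM130, had 0.974 ± 0.0195 on HFD and 0.804 ± 0.0388 on LFD. The 33 nt exon of Ythdf3, a reader of methylated adenosine in RNA, had 0.616 ± 0.0461 on HFD and 0.473 ± 0.0352 on LFD. The 60 nt exon of Dcaf6, a substrate receptor of a cullin ubiquitin ligase, had 0.733 ± 0.0453 on HFD and 0.602 ± 0.0462 on LFD. A 162 nt exon of Ythdc1, the nuclear reader of the same mark, is annotated as a first exon of a noncoding transcript and had 0.933 ± 0.0292 on HFD and 0.803 ± 0.0389 on LFD. Unannotated exons with higher values on HFD were those of Zranb1 (165 nt, 0.240 ± 0.0466 on HFD and 0.0937 ± 0.0278 on LFD), Zmym2 (78 nt, 0.985 ± 0.00847 on HFD and 0.850 ± 0.0364 on LFD), Vwa8 (132 nt, 0.916 ± 0.0213 on HFD and 0.799 ± 0.0301 on LFD) and Nr1h4. Nr1h4 encodes the bile acid receptor FXR, and its 120 nt exon had 0.784 ± 0.0324 on HFD and 0.657 ± 0.0334 on LFD. The Zmym2 exon differed by 0.07 from upstream and 0.20 from downstream. The 42 nt exon of Arid4b, a chromatin protein, is annotated as a last exon and had 0.271 ± 0.0541 on HFD and 0.0958 ± 0.0319 on LFD. The others, of Fbxw9 and Phf20l1, were both 0.11 higher on HFD. The multi-copy Mup-ps17 had a value of 0.475 ± 0.0445 on HFD and 0.355 ± 0.0444 on LFD, a difference within the bound.

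**Figure D3:**
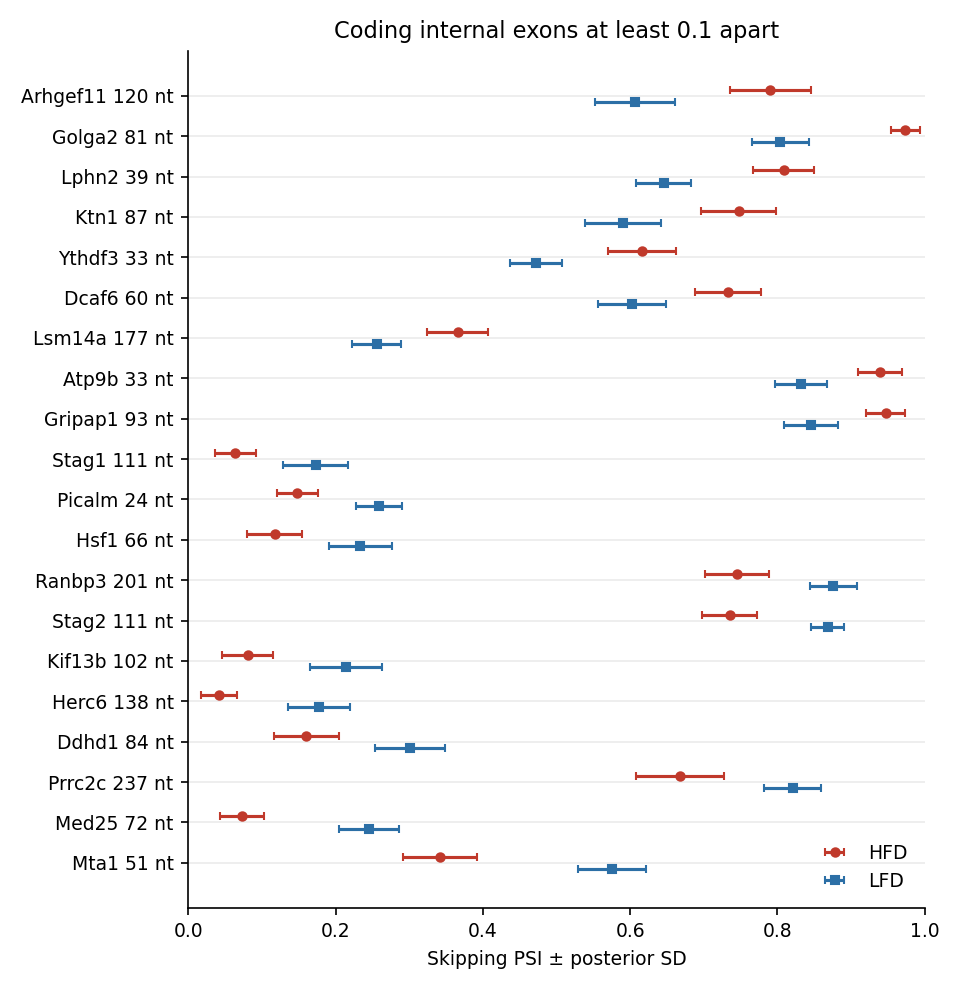
Skipping PSI on HFD (red circles) and LFD (blue squares) of 20 of the 21 coding internal frame-keeping exons at least 0.1 apart and past the bound. Points are pooled values of 3 libraries per diet and bars 1 posterior SD. Arhgef11 stands at the top with the largest positive difference among them (0.790 on HFD, 0.606 on LFD) and Mta1 at the bottom with the largest negative one (0.342 on HFD, 0.576 on LFD).

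For exons seen by 2 LSVs, both sides share the skipping junction but not the including one, so they are partly separate measures of 1 exon and not replicates. Over 963 exons the median difference between sides was 0.00056 on HFD and 0.00042 on LFD, since most lie at the limits. Over the 119 intermediate ones it was 0.0370 on HFD and 0.0238 on LFD. The diet difference had the same sign from both sides in 82 of these 119 exons, with Pearson's r = 0.58 across exons, given as a description. The median size of the diet difference was 0.0313 and that of the disagreement of the sides about it 0.0298, so for a typical intermediate exon a diet difference could not be told from the disagreement between sides. There were 10 exons with a difference of at least 0.1 in the same direction from each side, 6 higher on HFD (Akap8l, Gripap1, Ktn1, Lphn2, Lsm14a and a 24 nt exon of Uggt1) and 4 lower (Med25, Herc6, Hsf1 and Picalm). The bound was not applied to this count, and the difference of the Uggt1 exon was within the bound. Sides more than 0.2 apart within a diet were found for exons of Eif4e2, Adipor1 and Hsf2. The 210 nt exon of Eif4e2, a cap-binding protein, had 0.982 from upstream and 0.307 from downstream on HFD, and 0.985 and 0.284 on LFD.

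**Figure D4:**
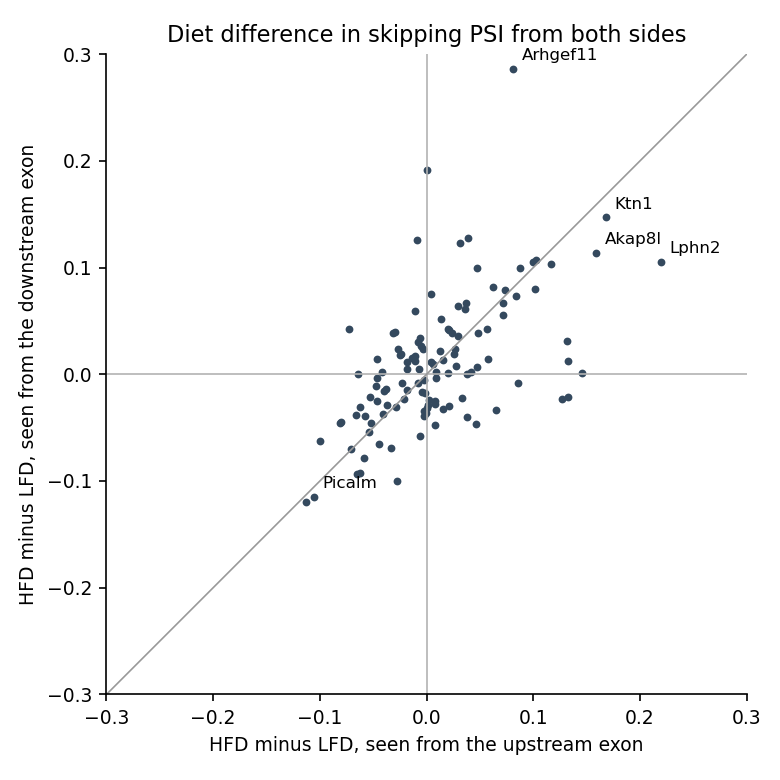
Difference in skipping PSI, HFD minus LFD, seen from the downstream exon (y axis) against the upstream exon (x axis), for the 119 intermediate frame-keeping exons with 2 LSVs. Each point is an exon and the diagonal marks equal differences. In 82 of 119 exons the signs are the same, and Arhgef11 lies far above the diagonal (0.29 against 0.08).

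The authors' other tables held few of these exons. The authors' deposited difference table, which covered 0.360% of the LSVs present for both diets, held 2 of the 2607 exons by the same LSV. That share is over LSVs with any number of junctions, so it is not matched to a count of exons. In that table Pde4dip had a PSI of 0.804 on HFD and 0.546 on LFD, and Ftcd had 0.599 on HFD and 0.847 on LFD. For Ftcd these differ from the values used above (0.788 on HFD and 0.9875 on LFD). Its change in the difference table was -0.26, past the threshold of 0.2 that it just missed above. A further one, the 129 nt exon of the kinesin Kif21a, was held there through a different LSV of 5 junctions, with 0.859 on HFD and 0.591 on LFD. In the simple cassette LSV the same exon had 0.786 ± 0.0477 on HFD and 0.736 ± 0.0360 on LFD, a difference of 0.05 that was within the bound.

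JUM, the second splicing program, listed 77 cassette events at p under 0.05 in the authors' deposited table, of which 7.79% had an adjusted p under 0.05. Of the frame-keeping exons 21 were among those listed and 2 of the 21 passed. The 63 nt exon of Chordc1, a cochaperone of Hsp90, rose in inclusion by 0.13 on HFD (adjusted p = 0.0119 in the authors' deposited table), and its skipping PSI was 0.924 ± 0.0163 on HFD and 0.984 ± 0.00816 on LFD. The exon of Kif21a fell in inclusion by 0.16 (adjusted p = 0.0122 in the authors' deposited table). The Chordc1 exon differed in skipping PSI by -0.03 from upstream and -0.09 from downstream. Of the 21 exons, 18 had the same direction in both programs, 2 of them (Dmgdh and Glyat) with skipping PSI at its lower limit on both diets. Tprkb and Pdia4 had opposite directions, and Ass1 was at the limit with no difference. Both programs read the same libraries, so this is no separate support. The authors' deposited JUM table also gave Ythdf3 a change in inclusion of -0.14 (adjusted p = 0.393), Stag2 0.13 (adjusted p = 0.404) and Acly 0.07 (adjusted p = 0.337). For the junction that skips the Arhgef11 exon, listed among alternative splice sites, the authors' deposited JUM table gave a change of 0.42 with an adjusted p of 0.0905.

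Gene lists are described by counts, without a test. The lists were chosen with earlier results of these data known, so their order by intermediate share is a description only. They are read against 10.1% intermediate exons and 1.61% of exons past 0.1 over all 2607 frame-keeping exons, and with 46 to 96 exons a list, 0 to 5 exons past 0.1 give no result about a list. RNA-binding and splicing genes held the largest share of intermediate exons among the 9 gene lists used. Of 69 frame-keeping exons in 49 of these genes, 19 were intermediate (27.5%) and 0 passed 0.1. Lsm14a, Ythdf3 and Ythdc1, which encode RNA-binding proteins and have exons past 0.1, are not in this list. The 147 nt exon of Hnrnpd, which controls the decay of AU-rich messages, had 0.532 ± 0.0363 on HFD and 0.536 ± 0.0338 on LFD. The 60 nt exon of Eif4h, which helps the helicase of translation initiation, had 0.506 ± 0.0323 on HFD and 0.555 ± 0.0291 on LFD. The 30 nt exon of Luc7l2, a relative of a U1 snRNP protein, had 0.424 ± 0.0297 on HFD and 0.479 ± 0.0284 on LFD. Seen from upstream and from downstream, the difference was 0.02 and -0.03 for Hnrnpd, -0.05 from either side for Eif4h, and -0.05 and -0.07 for Luc7l2. The 45 nt 5′ UTR exon of Hnrnph2 had 0.506 ± 0.0369 on HFD and 0.523 ± 0.0344 on LFD. Hnrnpa2b1 held 2 intermediate exons, 1 of 36 nt at 0.845 ± 0.0170 on HFD and 0.814 ± 0.0171 on LFD, and 1 of 120 nt at 0.243 ± 0.0224 on HFD and 0.221 ± 0.0217 on LFD.

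Lists of trafficking, cytoskeletal, signalling and chromatin genes had intermediate shares of 18.3% to 20.4%. Their few exons past 0.1 are read against 1.61% of all frame-keeping exons and give no result about a list. In membrane traffic, 13 of 67 exons were intermediate and 1, the Picalm exon, was 0.1 lower. A second exon of Picalm, of 150 nt, had 0.429 ± 0.0351 on HFD and 0.451 ± 0.0323 on LFD. Opa1, which fuses the inner mitochondrial membrane, had its 54 nt exon at 0.648 ± 0.0353 on HFD and 0.596 ± 0.0325 on LFD, and its 111 nt exon at 0.390 ± 0.0382 on HFD and 0.340 ± 0.0339 on LFD. From upstream and downstream the difference was 0.04 and 0.07 for the shorter exon of Opa1, and 0.06 and 0.04 for the longer. The 60 nt exon of Sec16a, which marks exit sites of the endoplasmic reticulum, had 0.547 ± 0.0411 on HFD and 0.463 ± 0.0388 on LFD. Among 71 exons of cytoskeletal, adhesion and motor genes, 13 were intermediate, those of Golga2 and Ktn1 passed 0.1 upwards and that of Kif13b downwards. The 45 nt exon of Myo18a, an unusual myosin, had 0.696 ± 0.0435 on HFD and 0.603 ± 0.0387 on LFD, with differences of 0.09 and 0.10 from its sides. The 45 nt exon of Lrrfip2 had 0.510 ± 0.0495 on HFD and 0.633 ± 0.0394 on LFD, a difference within the bound. The 102 nt exon of Macf1, which links actin to microtubules, had 0.358 ± 0.0479 on HFD and 0.362 ± 0.0447 on LFD, with differences of -0.02 and 0.01. A last exon of a noncoding transcript of Dlg1, a scaffold of cell junctions, had 0.438 ± 0.0468 on HFD and 0.430 ± 0.0369 on LFD.

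In signalling genes 11 of 56 exons were intermediate and that of Arhgef11 passed 0.1 upwards. The 57 nt exon of Arhgef12, an activator of RhoA like Arhgef11, had 0.572 ± 0.0462 on HFD and 0.588 ± 0.0359 on LFD, with differences of 0.00043 and -0.03 from its sides. The 63 nt exon of Csnk1d, a casein kinase, had 0.377 ± 0.0400 on HFD and 0.370 ± 0.0338 on LFD. In chromatin and transcription genes 11 of 54 exons were intermediate, 3 passed 0.1 upwards (Arid4b, Nr1h4 and Zmym2) and 2 downwards (Crem and Mta1). Over all frame-keeping exons 1.61% passed 0.1, and counts this small give no result about a list. The 102 nt exon of Ehmt2, a histone methyltransferase, had 0.357 ± 0.0493 on HFD and 0.343 ± 0.0407 on LFD, with differences of -0.01 and 0.03. The 174 nt exon of the corepressor Ncor1 had 0.569 ± 0.0514 on HFD and 0.533 ± 0.0445 on LFD. A 114 nt first exon of a noncoding transcript of Gtf2i, a transcription factor, had 0.428 ± 0.0510 on HFD and 0.495 ± 0.0454 on LFD. The 27 nt exon of Max, the partner of Myc, had 0.644 ± 0.0546 on HFD and 0.670 ± 0.0424 on LFD. A list of target genes of ESRP or muscleblind proteins had 10 of 46 exons intermediate, and Arhgef11 is also in this list. The list takes every frame-keeping cassette of a gene, and whether the exons counted are themselves such targets was not tested. It includes the 51 nt exon of Uap1, an enzyme that makes UDP-N-acetylglucosamine, at 0.371 ± 0.0327 on HFD and 0.424 ± 0.0304 on LFD.

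Lists of metabolic and secreted genes had intermediate shares under the 10.1% of all frame-keeping exons, by little for lipid genes. Of lipid, sterol and bile acid genes 5 of 62 exons were intermediate (8.06%), of carbohydrate, amino acid and mitochondrial genes 5 of 96 (5.21%), and of secreted plasma proteins 2 of 46 (4.35%). The 30 nt exon of Acly, which makes acetyl-CoA for lipid synthesis, had 0.638 ± 0.0283 on HFD and 0.690 ± 0.0290 on LFD, with differences of -0.07 and -0.04 from its sides. The 144 nt 5′ UTR exon of Lpin1, a phosphatidic acid phosphatase, had 0.405 ± 0.0477 on HFD and 0.314 ± 0.0270 on LFD. The 279 nt unannotated exon of Cd36, a fatty acid transporter, had 0.429 ± 0.0411 on HFD and 0.348 ± 0.0390 on LFD, with differences of 0.13 and 0.03, and only 54 nt of it lie between the junctions used. The 90 nt 5′ UTR exon of the multi-copy Acsm5, an acyl-CoA synthetase, had 0.770 ± 0.0283 on HFD and 0.793 ± 0.0237 on LFD. The 42 nt exon of Cbs, which turns homocysteine into cystathionine, had 0.523 ± 0.0274 on HFD and 0.492 ± 0.0274 on LFD, with differences of 0.02 and 0.04. The 99 nt exon of Kynu, an enzyme of tryptophan breakdown, had 0.253 ± 0.0236 on HFD and 0.239 ± 0.0213 on LFD, and the 42 nt exon of Clpx, the unfoldase of a mitochondrial protease, had 0.247 ± 0.0228 on HFD and 0.241 ± 0.0220 on LFD. The differences of the exons named in this paragraph were all within the bound, and the Bckdhb exon was the 1 of these lists to pass 0.1.

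Several genes had more than 1 intermediate cassette. The 199 annotated internal exons of this class lay in 181 genes, and 17 genes held 2 or more. Bclaf1, an RNA-processing factor, held 3, at 0.599, 0.508 and 0.451 on HFD and 0.599, 0.587 and 0.515 on LFD. Sptan1, a spectrin, held exons of 15 nt (0.838 ± 0.0292 on HFD, 0.821 ± 0.0264 on LFD) and 60 nt (0.325 ± 0.0537 on HFD, 0.364 ± 0.0377 on LFD). Sec31a, a coat protein of transport vesicles, held exons of 93 nt (0.823 ± 0.0270 on HFD, 0.855 ± 0.0230 on LFD) and 78 nt (0.225 ± 0.0302 on HFD, 0.269 ± 0.0283 on LFD).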

How the data were processed

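Hepatocyte mRNA of 3 HFD and 3 LFD mice was sequenced as stranded paired ends, per the labels' protocols. The submitters' processing notes name FastQC, STAR and the mm10 build, without versions. Per the file headers, the authors made PSI fractions, posterior variances and the difference table with MAJIQ and its viewer voila, and a list of events with p-values and adjusted p-values with JUM. The deposited PSI tables hold 1 value per diet over pooled libraries, so read depth per library is unknown and no replicate error could be computed. The title line of the JUM table names normal chow, while the heading of its change column gives HFD minus LFD, which was followed.

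Exons, skipping PSI, differences and exact binomial intervals (95%) were computed with Python 3 libraries, and the call rule was tested on simulated data. The simulated noise had the size of the posterior SDs and no spread between animals, so it says nothing about calls between mice. Exons were placed in GENCODE M21 by exact coordinates. The skipping junction was annotated there for 1958 of 2607 exons. Classes, thresholds of 0.1 and 0.2 and alternatives are given with the results. JUM junctions were matched within 2 nt.

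Named are called exons, the 12 largest rises and falls among exons with posterior SD up to 0.05 and mean skipping PSI of 0.05 to 0.95, exons in the authors' tables, up to 4 exons per gene list nearest to a PSI of 0.5, and the 5 shortest exons with skipping PSI of at least 0.1. Exons past 0.1, exons with known patterns and genes with several cassettes were added after their values were seen. Some exons that this rule names are not reported here. The members and lists were chosen with earlier results of these data known.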

Additional observations from a re-analysis of the deposited data

How the results depend on the processing

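No paired analysis was possible because the tables hold 1 pooled value per diet, and for the same reason no library could be left out in turn. Calls of 0.2 numbered 4 (1 higher, 3 lower on HFD) and stayed at 4 without the posterior bound, with a bound of 3 posterior SDs and with unannotated junctions left out, where none was marked as such. They came to 3 with posterior SDs of at most 0.05, to 3 without multi-copy families (1 higher, 2 lower) and to 3 among annotated internal exons (0 higher, 3 lower), the last chosen after seeing the data. A threshold of 0.1 gave 42 (19 higher, 23 lower). Exons seen from both sides gave 0, as did exons whose length between the splice sites used is divisible by 3, so each of the 4 rested on 1 side. Counting LSVs gave 7 (4 higher), and so did calling an exon from either side, chosen after seeing the data. The median skipping PSI on HFD was 0.0395 in exons seen from both sides, 0.0382 with length between splice sites and 0.0152 in annotated internal exons, where it was 0.0182 on LFD. Intermediate exons numbered 119 seen from both sides, 125 with length between splice sites and 145 with PSI from 0.2 to 0.8, the lower counts following from fewer exons or a narrower range. No JUM cassette passed an adjusted p under 0.01 (0 of 21). Of 36 named exons seen from both sides, the diet difference of the downstream side lay within the posterior SD of that of the upstream side in 30. Among the 963 such exons, 85 had a length between splice sites other than the exon's, and in 38 of these it was not divisible by 3.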
